A study of Solanum lycopersicum with 18 samples.

Results

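The genes described here are the gibberellin oxidases and *PROCERA*, 10 tomato genes chosen by identifier for their place in gibberellin synthesis, breakdown and signalling. Of these 10 genes, 9 were found among the 35825 genes of the deposited RNA-seq table, and the remaining one, *GA20ox4* (Solyc01g093980), was not analysed here. The study compared wild-type tomato (*Solanum lycopersicum*, cultivar M82) with *crel* mutants, which carry lesions in *CRAWLING ELEPHANT* (*CREL*), a gene for a PHD-finger protein of the VIL family. Plants were grown on soil in long days, and shoot apices bearing about 3 visible expanding leaves were collected 28 days after germination. RNA-seq covered 3 wild-type libraries and 7 *crel* libraries, of which 3 were labelled *crel-1*, 2 *crel-2* and 2 *crel-3*. A supplementary table of the study gives other allele numbers for the lines labelled *crel-1* and *crel-3*. The *crel* lines were obtained by mutagenesis and are in the M82 background, *crel-2* is a fast-neutron deletion in the gene, and the mutants are sterile. ChIP-seq for H3K27me3, the histone mark set by the Polycomb Repressive Complex 2, was done in 2 wild-type and 2 *crel* replicates, the latter *crel-2* by the study's methods.

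Gibberellins are plant hormones that promote stem elongation and the growth and maturation of leaves, and in tomato high gibberellin activity is known to give simpler leaves. GA 20-oxidases catalyse the late steps that shorten the carbon skeleton of the hormone precursors, and GA 3-oxidases then make the bioactive forms. GA 2-oxidases inactivate the hormone or its precursors. DELLA proteins repress gibberellin responses and are destroyed once the hormone is bound by its receptor, and *PROCERA* encodes the tomato DELLA protein.

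The deposited table gives a single level for each gene. This value is the mean normalized count, for which the authors divided the reads counted on a gene in each library by that library's size factor and averaged the results over all 10 RNA-seq libraries. Libraries of *crel* thus supplied 7 of the 10 values behind each mean. A mean over both genotypes does not say whether a gene differed between them, and no spread over replicates can be drawn from it, so no test between wild type and *crel* was made. It does set a limit. Because no library can have a count under 0, the wild-type mean of a gene cannot exceed the value it would have if all its reads came from wild-type libraries, and the same holds for *crel*. Both limits are given beside each level. Each limit is the mean multiplied by a factor that depends only on the number of libraries and is the same for every gene. The limits therefore add nothing about a single gene beyond its level. For every gene the wild-type limit is the higher one because there were 3 wild-type and 7 *crel* libraries. Counts were not divided by gene length, since no gene models of the authors' build were used, so the order of the genes below is one of reads and not of transcripts. The mutated gene, *CREL*, had a mean normalized count of 376 over the same libraries, which as a pooled value cannot check the labels of single libraries.

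Among the 3 GA 20-oxidases found, *GA20ox1* (Solyc03g006880) collected most of the reads. Its mean normalized count was 387, which was higher than that of 78.9% of the 34423 genes with reads, that is, with a mean above 0. The *crel* mean of *GA20ox1* could be at most 553 normalized counts and its wild-type mean at most 1291. *GA20ox2* (Solyc06g035530) had a mean normalized count of 46.6, at percentile 51.7 of the same genes. Its limits were 66.6 normalized counts for the *crel* mean and 155 for the wild-type mean. *GA20ox3* (Solyc11g072310) had the fewest reads of these enzymes, with a mean normalized count of 15.2 at percentile 39.4. The *crel* mean of *GA20ox3* could not be above 21.7 normalized counts, nor the wild-type mean above 50.6. Summed over these 3 genes the mean normalized count was 449, and *GA20ox1* alone accounted for 86.2% of that sum. *GA20ox1* lay above the upper quartile of genes with reads, 300.1 normalized counts, whereas *GA20ox2* and *GA20ox3* lay between the lower and the upper quartile.

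The study's list of primers holds a quantitative PCR pair whose label names a GA 20-oxidase. The pair is named for *GA20ox3* and is printed because no other primers in the study's list are named for a gene described here. It is written 5′ to 3′ in lower case with no part marked, and its place in the genome was not determined here.
RT-GA20ox-3-F: tgatcagaaaggctcatcacac
RT-GA20ox-3-R: ggctcaatcccaaaagttcc
The forward primer has 22 bases with 45.5% G and C, and the reverse primer has 20 bases with 50.0%. No measurement made with this pair was used here.

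Both GA 3-oxidases of the list had reads. *GA3ox2* (Solyc03g119910) had a mean normalized count of 58.8, at percentile 54.1 of genes with reads, with limits of 84.0 for the *crel* mean and 196 for the wild-type mean. *GA3ox1* (Solyc06g066820) had a mean normalized count of 16.6, at percentile 40.6, with limits of 23.8 for *crel* and 55.5 for wild type. Of the summed mean normalized count of this pair, 75.4, *GA3ox2* made up 77.9%. How these shares differ between wild type and *crel* was not analysed here.

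The 3 GA 2-oxidases of the list summed to a mean normalized count of 75.9, beside 75.4 for the GA 3-oxidases of the list. These are sums over the listed genes and not over whole families. *GA2ox2* (Solyc07g056670) had a mean normalized count of 38.0 and *GA2ox4* (Solyc07g061720) one of 34.5, at percentiles 49.7 and 48.7. The limit on the *crel* mean was 54.3 normalized counts for *GA2ox2* and 49.3 for *GA2ox4*. The limit on the wild-type mean was 127 normalized counts for *GA2ox2* and 115 for *GA2ox4*. Together *GA2ox2* and *GA2ox4* held 95.5% of the summed mean normalized count of the 3 listed GA 2-oxidases. In the RefSeq annotation of assembly SLM_r2.1 no protein-coding gene lies between *GA2ox4* and *GA2ox5*, another gene of the family that is not described here. How far reads of these neighbours could be confused was not tested.

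*GA2ox1* (Solyc05g053340) was the lowest of the 9 genes. Its mean normalized count was 3.39, at percentile 15.1, which is below the lower quartile of genes with reads, 6.27. Over all 10 libraries its normalized counts summed to 33.9, and this is also the most that any single library could have held. The *crel* mean of *GA2ox1* could therefore be at most 4.84 normalized counts and the wild-type mean at most 11.3.

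*PROCERA* (Solyc11g011260) stood far above the oxidases in reads. Its mean normalized count was 4872, and 98.8% of genes with reads had a lower one. The *crel* mean could be at most 6960 normalized counts and the wild-type mean at most 16241. When the mean normalized counts of all genes were scaled to sum to 1000000, *PROCERA* had 282 and the 8 oxidases together had 34.8.

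**Figure D1:**
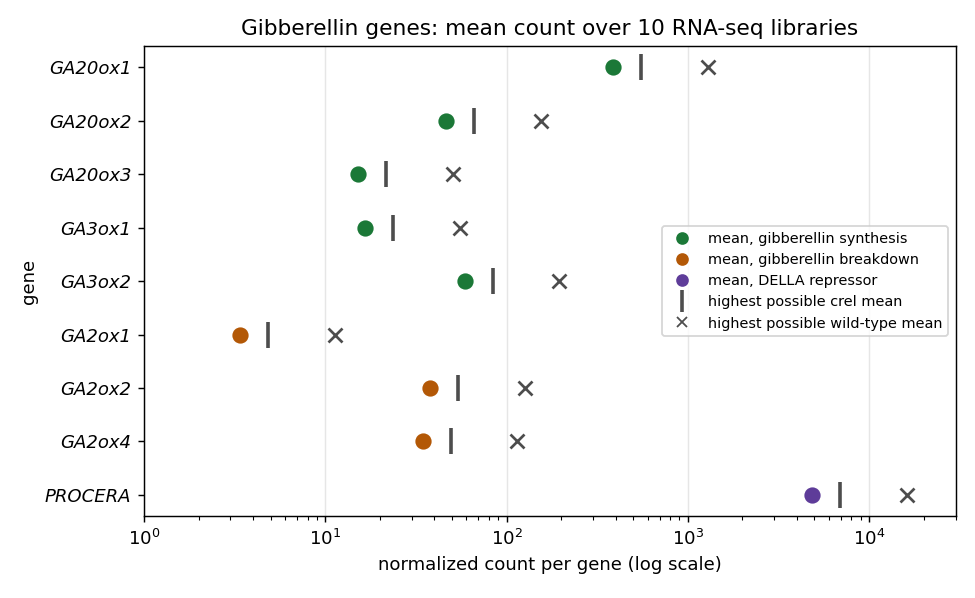
Mean normalized count of each of the 9 genes over the 10 RNA-seq libraries on a logarithmic x axis, coloured by role (filled points), with the highest mean that the *crel* libraries (vertical bars) and the wild-type libraries (crosses) could have. *PROCERA* lies at 4872, *GA20ox1* at 387 and the other 7 oxidases between 3.39 and 58.8. Crosses lie to the right of bars for every gene because there were 3 wild-type and 7 *crel* libraries. No error bars are drawn because the table holds no values of single libraries.

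A mean normalized count under 100 was shared by most oxidases and by most genes with reads. Of the 8 oxidases found, 7 had a mean normalized count under 100, 4 of them between 34.5 and 58.8 and 3 of them 16.6 or lower. Their median was 36.2 normalized counts, against a median of 39.4 for all genes with a mean count above 0, of which 40.3% had more than 100. The summed mean normalized count of the 8 oxidases was 600.4, of which *GA20ox1* made up 64.5%. This count describes the genes and is not a test, since the genes were chosen by function and neither their lengths nor their spread over libraries entered it.

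**Figure D2:**
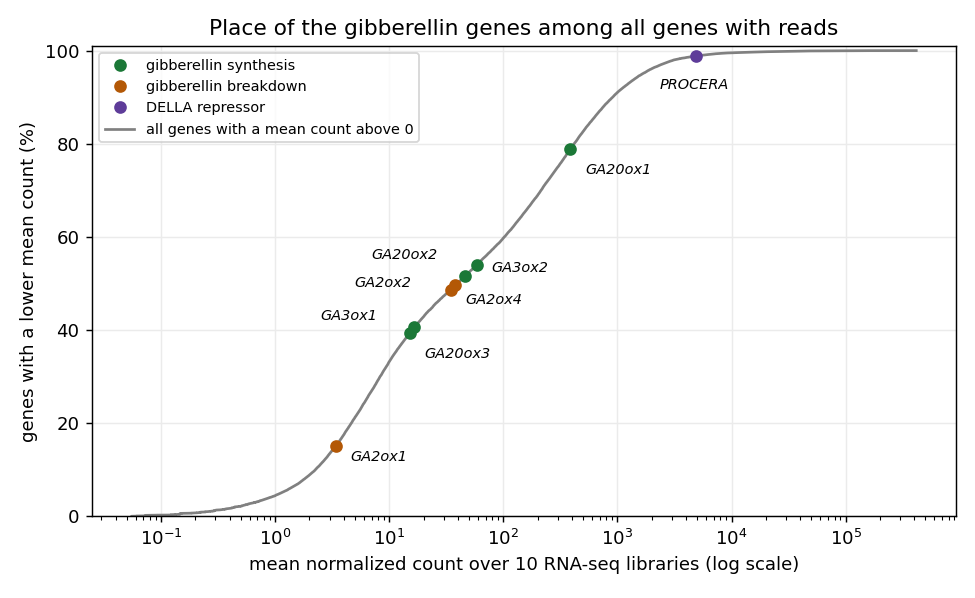
Cumulative curve of the mean normalized count over all 34423 genes with a mean count above 0 (grey line; x axis logarithmic, y axis the percentage of genes with a lower mean count), with the 9 gibberellin genes as points coloured by role. *GA2ox1* lies at 15.1% of genes, *GA20ox3* and *GA3ox1* at 39.4% and 40.6%, *GA2ox4*, *GA2ox2*, *GA20ox2* and *GA3ox2* between 48.7% and 54.1%, *GA20ox1* at 78.9% and *PROCERA* at 98.8%.

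Whether the oxidase genes carry H3K27me3 was not analysed here. The 4 deposited peak lists carry sequence names of the SL2.40 build, whereas the study's methods name SL3.0 for the mapping, and this difference was not resolved here. No gene models of either build were used, so the deposited peaks were not placed on the genes described above, and the study's own assignment of sites to genes was not used.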

How the data were processed

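Shoot apices were profiled by RNA-seq (10 libraries) and by ChIP-seq for H3K27me3 with input (8 libraries), with groups and replicates taken from the sample labels. For RNA-seq the authors used Trimmomatic for trimming, STAR for mapping to the SL3.0 build, featureCounts for gene counts and DESeq2 for normalization. Tool versions, the strand setting and the treatment of multiply mapped reads are not given in the sources used here. The deposited mean normalized count is a signal that the authors obtained by dividing counts by size factors and averaging over all RNA-seq libraries. The other 6 columns hold the authors' own comparison of *crel* with wild type (fold change, its error, test statistic, p-values and a call) and were not used. The deposited table gives no depth for single libraries, and the read numbers in the study's supplement were not used here. The 4 peak lists, called per replicate by the authors with HOMER, were not used.

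Members were matched by identifier without its version suffix. The percentile of a gene is the percentage of genes with a mean count above 0 that have a lower mean. The highest possible mean of a genotype is the summed normalized count over 10 libraries divided by its number of libraries, 3 or 7. These calculations were tested on simulated data. Python 3.11.15, pandas 2.3.3, numpy 2.4.6 and matplotlib 3.10.9 were used. Of the 10 gene names, 7 were found in RefSeq's annotation (assembly SLM_r2.1), each on the chromosome that the identifier names; *GA20ox2*, *GA20ox3* and *GA3ox2* were not matched. The table was used for names and neighbours alone. All genes of the list are named, and the genes and measures were chosen with earlier results of these data known. Other genes of the pathway were given no level, since nothing used here pairs their names with identifiers, and *GA2ox5* is named as a neighbour alone. Percentiles were recomputed against all rows of the table and against genes whose mean was 10 or more. Levels per length, protein identity and peaks at the genes could not be computed, as the closing section states.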

Additional observations from a re-analysis of the deposited data

How the results depend on the processing

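The place of a gene in the order of reads depended on the genes it was set against. With genes of a mean count above 0 as the background, 4 of the 9 genes lay above the median. With all rows of the table, which adds 1402 genes with a mean count of 0, the number was 6, and percentiles moved by 0.046 to 3.32 points. With genes of a mean count of at least 10, a background that *GA2ox1* does not reach, it was 2, *GA20ox1* and *PROCERA*, and the percentiles of the 8 genes that reach it moved by 0.58 to 30.1 points. *GA20ox2*, *GA3ox2*, *GA2ox2* and *GA2ox4* lie close to the median and are the genes whose side of it these settings decide. Levels per length, protein identity and peaks at the genes were planned and not run, since no transcripts, proteins or gene models of the authors' builds were used. Resolving the means into whole reads of single libraries was tried. This gave 6 candidate values of 1 read for 10 libraries, which left 4 libraries without one. No gene was resolved and the wider tolerance was not run. No paired analysis was possible because the table holds no values of single libraries. For the same reason no library could be left out in turn. The reads of single libraries behind each mean, *GA2ox1* with its mean of 3.39 included, were not resolved, so no counting error is given.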
